A study of Papio anubis with 60 samples.

Results

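H3K4me3 and H3K27ac were set against each other within embryonic stem cells (ESC) of the olive baboon, Papio anubis. The members were all peaks of the ESC lists of these marks on chromosomes 1 to 20, with the summit of each peak, the position of its highest signal, as its point of reference. They numbered 681666, of which 305565 were H3K4me3 peaks and 376101 H3K27ac peaks, out of 2116963 peaks in the 8 lists of the series. The cells were ESC lines B4 and B15, grown on feeder cells, with 3 replicates per line for each mark and 12 libraries for both marks, plus 6 ESC input libraries. Each library came from 50000 cells, and the chromatin was cut with micrococcal nuclease, an enzyme that digests the linker DNA between nucleosomes. No genotype change or treatment is named in the labels. Induced pluripotent stem cells (iPSC) of lines 160-2 and M14939#3, made by reprogramming and also grown on feeder cells, served for comparison where stated.

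Each cell type and mark had 1 peak list, and no label tied a list to single libraries or lines. A list thus has no replicate, the spread between cultures is unknown, and differences are described without p-values. Errors are 95% Wilson intervals, which cover counting error and treat neighbouring peaks as independent, or the SD over 20 chromosomes. The level expected from density alone was read from the same lists after 1 of them was shifted around each chromosome, referred to as the shifted level. It is a description and not a test. The read depth behind the lists is unknown, and the number of peaks that pass a threshold depends on it. Feeder cells were in the culture, and their part in the lists was not tested.

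Nucleosomes carry both marks on the tail of histone H3. Trimethylation of lysine 4 (H3K4me3) is laid down at promoters by SET1 and MLL complexes, and acetylation of lysine 27 (H3K27ac) is laid down by p300 and CBP at active promoters and active enhancers. Enhancers typically carry H3K4me1 and little H3K4me3, so peaks of H3K27ac alone are often used to find candidate enhancers. Lysine 27 can instead be trimethylated by the Polycomb complex PRC2 (H3K27me3). A single tail cannot carry both modifications of lysine 27. In pluripotent cells many promoters of developmental genes carry H3K4me3 and H3K27me3 together, the state known as bivalent.

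The H3K4me3 peaks covered 135 Mb (5.20% of the sequence spanned), with a median width of 276 bp and a median fold enrichment of 3.52. The H3K27ac peaks covered 102 Mb (3.95%), with a median width of 216 bp and a median fold of 2.95. Fold enrichment and −log10 q, the strength of a peak, are the authors' values. H3K4me3 had 25693 peaks of at least 1 kb and H3K27ac 3614, so long peaks were largely a feature of H3K4me3. Within a list no peaks touched, and the smallest gap was 102 bp in both. A further 31093 H3K4me3 peaks and 11377 H3K27ac peaks lay off chromosomes 1 to 20 and were not members.

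H3K4me3 and H3K27ac met on the same sequence several times more often than their densities alone would give, yet most peaks of each mark were without the other. Of the H3K4me3 peaks, 142443 (46.6%, interval 46.4 to 46.8) shared at least 1 bp with an H3K27ac peak, against a shifted level of 9.65% that ranged from 9.28% to 10.2% over 100 shifts. Of the H3K27ac peaks, 151734 (40.3%, 40.2 to 40.5) lay on an H3K4me3 peak, against 8.25% (7.93% to 8.80%). Shifts of 10 to 200 kb, which keep each peak in its neighbourhood, gave 11.2% and 9.68%. In base pairs, 42.9 Mb carried both marks, which was 31.8% of the H3K4me3 sequence and 41.9% of the H3K27ac sequence. The overlap was mostly 1 to 1: 3.44% of the H3K4me3 peaks and 0.717% of the H3K27ac peaks met 2 or more peaks of the other mark.

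The share varied little between most chromosomes. It was 46.4% ± 2.35 for H3K4me3 and 40.7% ± 3.05 for H3K27ac (mean and SD over 20 chromosomes). Chromosome 19 stood at an end of both ranges: it had the densest H3K4me3 (171 peaks per Mb), the lowest share of H3K4me3 peaks on H3K27ac (39.4%) and the highest share of H3K27ac peaks on H3K4me3 (48.1%). Chromosome 2 had the highest H3K4me3 share, 50.7%, and chromosome 5 the lowest H3K27ac share, 35.3%. In bins of 1 Mb the coverage of one mark went with that of the other. H3K27ac covered 2.40% ± 0.807 of the bins poorest in H3K4me3 and 6.30% ± 2.55 of those richest in it (SD over 517 bins in each group). Spearman's rho was 0.668 and Pearson's r 0.661 over 2584 bins, which share gene density and base composition and are not independent.

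Stronger peaks of both marks were shared more often in percent. When the H3K4me3 list was ranked by −log10 q into 5 equal groups, the share on H3K27ac was 33.7%, 38.3%, 43.7%, 54.0% and 63.4% from the weakest to the strongest. For H3K27ac on H3K4me3 the shares were 26.99%, 31.8%, 35.5%, 42.0% and 65.5%. For H3K27ac the shifted level went from 7.85% to 9.35%, and the ratio of share to shifted level rose from 3.44 to 6.997. For H3K4me3, whose strong peaks are wide, the shifted level went from 7.28% to 16.0%. The ratio rose from 4.63 in the weakest group to 5.76 in the fourth and was lowest, 3.97, in the strongest. A high shifted level limits how large the ratio can be, so the ratio does not compare these groups on equal terms. Fold enrichment of overlapping peaks also went together across the marks. The median H3K27ac fold was 2.72 at the fifth of the pairs with the lowest H3K4me3 fold and 3.91 at the fifth with the highest. Spearman's rho was 0.409 over 154614 overlapping pairs, which share libraries and local background.

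Width separated the marks. The share of H3K27ac peaks on H3K4me3 rose with every step in width, from 28.2% under 200 bp to 90.6% at 1 to 2 kb (3100 of 3420) and 97.4% at 2 to 5 kb (189 of 194, interval 94.1 to 98.9). The shifted level rose too, to 17.0% and 25.2%. The share of H3K4me3 peaks on H3K27ac rose from 34.5% to 65.8% at 1 to 2 kb and then turned. It was 62.1% at 2 to 5 kb (interval 60.98 to 63.3) and 41.3% at 5 kb or more (104 of 252, 35.4 to 47.4). Peaks of that width would have met H3K27ac in 51.9% by density alone, so the widest H3K4me3 peaks were on H3K27ac 0.795 times as often as in shifted lists, while those of 200 to 300 bp were on it 5.75 times as often. The high shifted level of wide peaks limits how large their ratio can be, but the share of 41.3% was itself below that level. Nearly all peaks this wide belong to the strongest group by −log10 q (6710 of 6778 at 2 to 5 kb and all 252 at 5 kb or more), so width and strength could not be separated there.

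**Figure D1:**
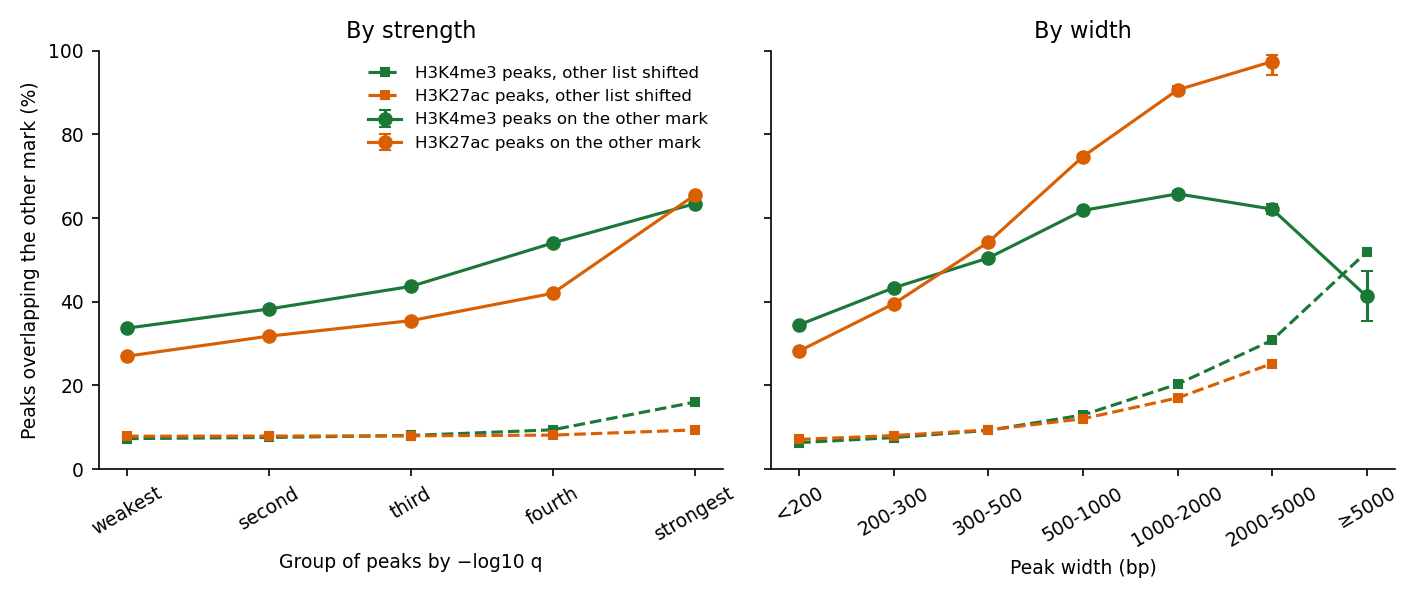
Share of ESC peaks that overlap the other mark (y axis, percent) by 5 equal groups of −log10 q (left) and by peak width in bp (right), for H3K4me3 and H3K27ac peaks. Points are shares with 95% Wilson intervals and dashed lines the level in shifted lists; the H3K27ac share rises to 97.4% with width, and the H3K4me3 share turns and falls below its shifted level of 51.9% at 5 kb or more.

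The turn at wide H3K4me3 peaks went with H3K27me3. H3K27me3 lay on 6.68% of the H3K4me3 peaks under 300 bp, on 41.7% of those of 1 to 2 kb, on 68.3% of those of 2 to 5 kb and on 93.7% of those of 5 kb or more. Without H3K27me3, H3K27ac was met by 81.9% of the peaks of 1 to 2 kb (8908 of 10875) and by 93.5% of those of 2 to 5 kb (2009 of 2148). With H3K27me3 the shares were 43.3% (3371 of 7788, interval 42.2 to 44.4) and 47.6% (2203 of 4630, 46.1 to 49.0). At 5 kb or more, 12 of 16 peaks without H3K27me3 (interval 50.5 to 89.8%) and 92 of 236 with it (39.0%, 33.0 to 45.3) met H3K27ac. The difference was present in narrow peaks as well, 40.4% without and 8.19% with H3K27me3 under 300 bp. An overlap here means a shared base pair, not both modifications on 1 tail or in 1 cell.

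Where the marks overlapped, the most frequent of the arrangements was an H3K27ac peak within a longer H3K4me3 peak. Of 154614 overlapping pairs, 44.98% (44.7 to 45.2) had the H3K27ac peak inside the H3K4me3 peak, with median widths of 245 and 629 bp. The converse held for 18.1% (18.0 to 18.3), with median widths of 336 bp for H3K27ac and 198 bp for H3K4me3. The rest, 36.9%, were staggered, with H3K27ac to the left in 18.5% and to the right in 18.4% of all pairs. The H3K27ac summit fell inside the H3K4me3 peak in 94.7% of the pairs and the H3K4me3 summit inside the H3K27ac peak in 83.8%.

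The summits of overlapping peaks were close to each other. They were at most 20 bp apart in 39.6% of the pairs, at most 50 bp in 60.5% and at most 150 bp in 75.6%, with a median of 31 bp. An identical base was the summit of both in 1.62%. The H3K27ac summit lay to the right in 49.995% of the pairs with a difference (49.7 to 50.2), so along the chromosome neither side was preferred. Strand was not used, since the peaks carry none.

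Over all H3K4me3 peaks, the nearest H3K27ac summit lay at a median of 522 bp, with quartiles of 31 and 3041 bp, against a median of 3112 bp in shifted lists and 2700 bp after shifts of 10 to 200 kb. It was within 50 bp for 30.6% of the H3K4me3 summits and in 1.48% after shifting. From H3K27ac to the nearest H3K4me3 summit the median was 1116 bp (quartiles 51 and 5239), against 4449 bp shifted, and 24.9% were within 50 bp against 1.21%. The distances fell into 2 sets. Shared H3K4me3 peaks had a median of 27 bp (quartiles 10 and 84), and H3K4me3 peaks alone 2711 bp (1068 and 6939), a split that follows in part from how the sets are defined. Among shared H3K4me3 peaks the distance grew with width, from 22 bp under 300 bp to 31 bp, 46 bp, 123.5 bp and 663 bp at 5 kb or more. Over 20 chromosomes the median distance from H3K4me3 was 542 ± 135 bp (SD of the medians), from 371 bp on chromosome 2 to 1017 bp on chromosome 19.

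The summit distances had 2 maxima with a gap between them. Counted over all pairs of an H3K4me3 and an H3K27ac summit up to 2 kb apart, 59329 pairs lay at 0 to 19 bp. The number fell to 1904 at 140 to 159 bp, close to the shifted level of 1795 pairs per 20 bp, and rose again to 4055 at 380 to 399 bp, 2.13 times the trough. Peaks of the same list had no such pairs at short range, since peaks of a list lie at least 102 bp apart, and their pairs were most frequent at 420 to 439 bp for H3K4me3 and at 400 to 419 bp for H3K27ac. The second maximum between the marks thus lay near the most frequent spacing within each mark. The pattern was not limited to marks of the same cells. ESC H3K4me3 against iPSC H3K27ac had its trough at 140 to 159 bp and its second maximum at 380 to 399 bp, and 19.9% of the ESC H3K4me3 summits had an iPSC H3K27ac summit within 50 bp (0.837% shifted). Fragment lengths, read shifts and the sequence preference of the nuclease also bear on where a summit is set, and their part was not tested.

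**Figure D2:**
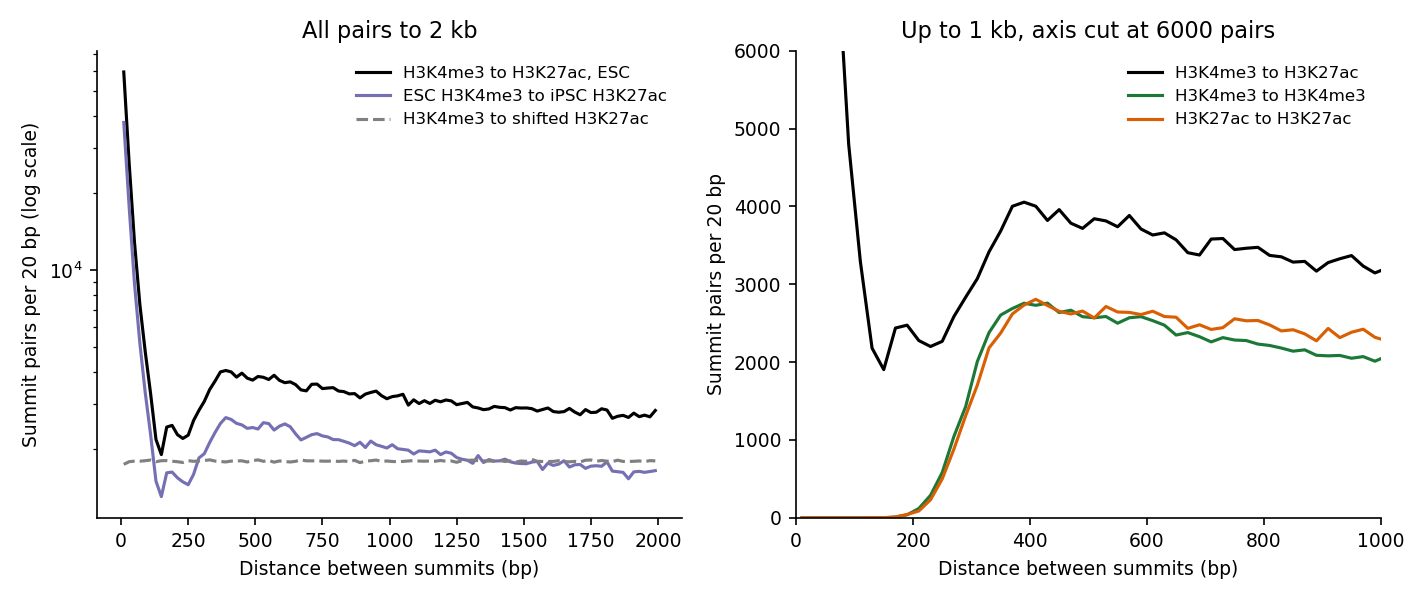
Number of summit pairs per 20 bp (y axis, log scale on the left, linear and cut at its upper end on the right) against the distance between summits in bp. Pairs between marks, within each mark, between ESC H3K4me3 and iPSC H3K27ac and in shifted lists are drawn as lines; those between the ESC marks fall to 1904 at 140 to 159 bp and rise to 4055 at 380 to 399 bp, where pairs within each mark are also near their maximum.

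To describe the flanks, firm H3K4me3 peaks (−log10 q of at least 5) were joined within 1 kb, and the 43159 domains of at least 1 kb were kept. Each domain was centred on its strongest H3K4me3 summit. Firm H3K27ac summits within 150 bp were counted as central, and those farther out but within 2 kb as flanking. Of the domains, 75.8% overlapped an H3K27ac peak and 67.5% a firm one.

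Of the flank classes, H3K27ac on 1 flank was the most frequent, and it was also the most frequent occupied class in shifted lists. The flank windows are wider than the central one, and the flank classes include domains with a central summit as well. Of the domains with 1 flank, 8025 (46.6%) also had a central summit. H3K27ac lay on both flanks of 5581 domains (12.9%, 12.6 to 13.3), on 1 flank of 17211 (39.9%), at the centre alone of 6717 (15.6%), and nowhere within 2 kb of 13650 (31.6%). The shifted levels were 4.24%, 22.5%, 1.45% and 71.8%, so the centre stood farthest above its level: 41.3% of the domains had a firm H3K27ac summit within 150 bp of the strongest H3K4me3 summit, against 2.96% in shifted lists. The left flank was occupied in 32.5% and the right in 33.2%. Both together would be expected in 10.8% if the flanks filled independently, less than the 12.9% found. In shifted lists, 4.24% with both flanks beside 22.5% with 1 flank is also above such a product. The excess can thus not be read as particular to H3K4me3 domains. The product was not computed separately for domains with and without H3K27me3.

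A single H3K27ac flank was usually on the longer arm of the domain. Of 17205 domains with 1 flank and unequal arms, 75.5% (74.9 to 76.1) had H3K27ac on the side where the H3K4me3 domain reached farther from its summit, and 49.97% did so in shifted lists. Left and right did not differ in this way, with 50.8% on the right. The longer arm holds more H3K4me3 by its definition, and shifting removes the overlap of the marks. A shifted level near 50% was thus set in advance. From 150 bp to 2 kb, mean H3K4me3 coverage was 48.7% on the longer arm and 24.0% on the shorter. For H3K27ac it was 15.9% and 8.23%. Whether H3K27ac favours the longer arm beyond its H3K4me3 was not tested. In domains with both flanks the nearer H3K27ac summit was at a median of 546 bp and the farther at 1098 bp, and the flanking summits were 1683 bp apart (quartiles 1206 and 2223). Both flank summits were inside the H3K4me3 domain in 52.3% of these domains, 1 was inside and 1 outside in 44.6%, and both were outside in 3.12%. A central H3K27ac summit was present as well in 3062 of the 5581 domains with both flanks (54.9%) and absent in the other 45.1%.

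In the profile of coverage around the strongest H3K4me3 summit, H3K27ac was highest at the summit and higher on the longer arm than on the shorter. H3K27ac covered 55.8% of the domains at the summit. At 500 bp it covered 21.7% on the longer arm and 11.1% on the shorter, and at 1 kb 17.5% and 5.82%, against about 4.04% in shifted lists. H3K4me3 itself covered 65.2% and 41.1% at 500 bp, a difference that the choice of the longer arm fixes. The difference in H3K27ac between the arms follows in part from this choice, since the marks overlap. Mean H3K27ac coverage dropped at the edge of the H3K4me3 domain. At the edges of the 19315 domains of at least 2 kb, H3K27ac covered 20.7% of the first 250 bp inside and 3.56% of the first 250 bp outside, and 22.6% at 500 to 1000 bp inside. H3K4me3 covered 94.3% and 1.57% of the same 250 bp, which its use to draw the edges fixes. The drop in H3K27ac follows in part from these edges, since the marks overlap. No shifted level was computed at the edges.

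**Figure D3:**
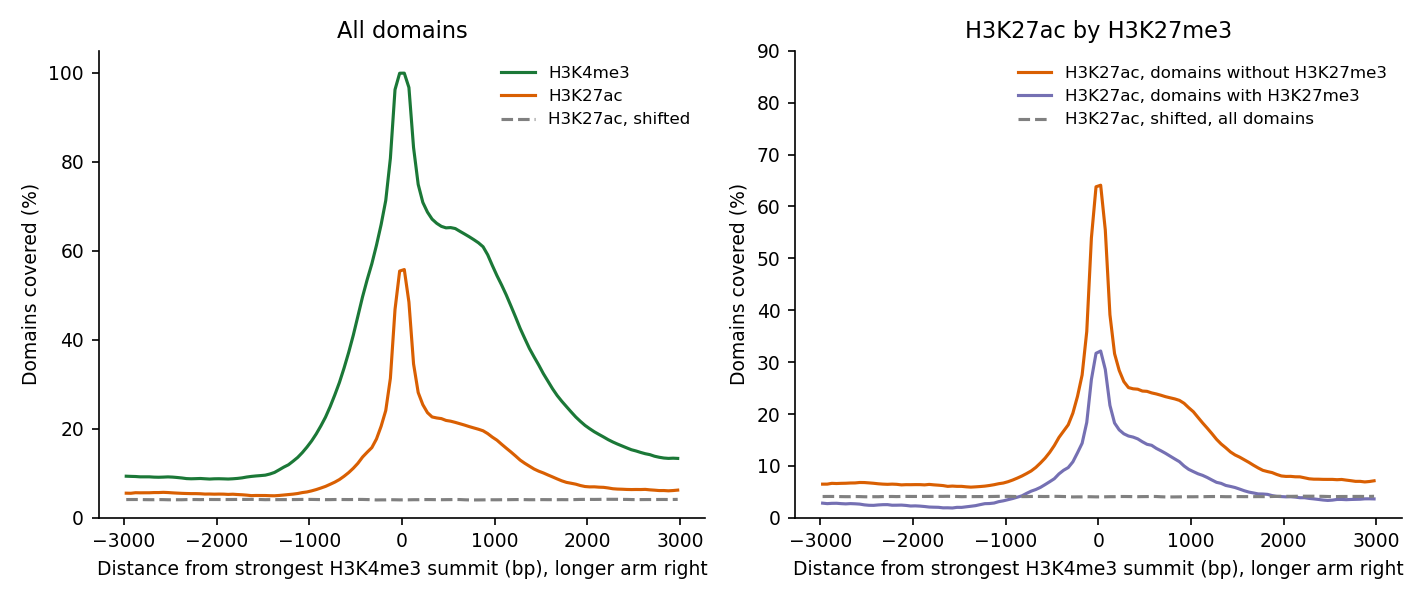
Share of H3K4me3 domains covered by a peak (y axis, percent) against the distance in bp from the strongest H3K4me3 summit, with the longer arm of each domain turned to the right. The left plot has H3K4me3, H3K27ac and shifted H3K27ac over 43159 domains, and the right plot H3K27ac in domains with and without H3K27me3; H3K27ac reaches 55.8% at the summit and 21.7% against 11.1% at 500 bp on the longer and shorter arm.

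Domains with H3K27me3 bore less H3K27ac in every measure of the arrangement. Among the 11186 domains that overlapped a firm H3K27me3 peak, 4.16% had H3K27ac on both flanks and 58.3% none within 2 kb. The shifted levels over all domains were 4.24% and 71.8%, so the 4.16% was near its level. They were not computed for domains with H3K27me3 by themselves. Among the 31973 domains without firm H3K27me3, 16.0% had both flanks and 22.3% none. Firm H3K27ac covered 11.0% ± 17.8 of the length of the former and 26.0% ± 23.4 of that of the latter (SD over domains), and any H3K27ac peak covered 32.1% and 64.1% of them at the strongest summit. H3K9me3, the mark of constitutive heterochromatin, showed a smaller difference, with both flanks in 8.91% of the domains that bore it and in 13.8% of the others.

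The difference was present at each domain width. Without H3K27me3, the share with both flanks rose from 12.8% at 1 to 1.5 kb to 24.5% at 3 to 5 kb and 28.7% at 5 to 10 kb, and was 10 of 39 (25.6%, 14.6 to 41.1) at 10 kb or more. With H3K27me3 it was 1.90%, 5.75%, 6.60% and 10 of 357 (2.80%, 1.53 to 5.08) at the same widths. The shifted level over all domains was 4.24%, and none was computed for these classes. The mean coverage by firm H3K27ac hardly changed with width in domains without H3K27me3, at 26.1% in the narrowest class and 26.3% in the widest. In domains with H3K27me3 it was 11.7% and 3.9997%. Of the 396 domains of at least 10 kb, 90.2% bore H3K27me3 and 73.7% had no firm H3K27ac summit within 2 kb of the strongest summit. A window of 2 kb covers less of a wide domain, but firm H3K27ac lay anywhere on 42.9% of these domains, less than on 67.5% of all.

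**Figure D4:**
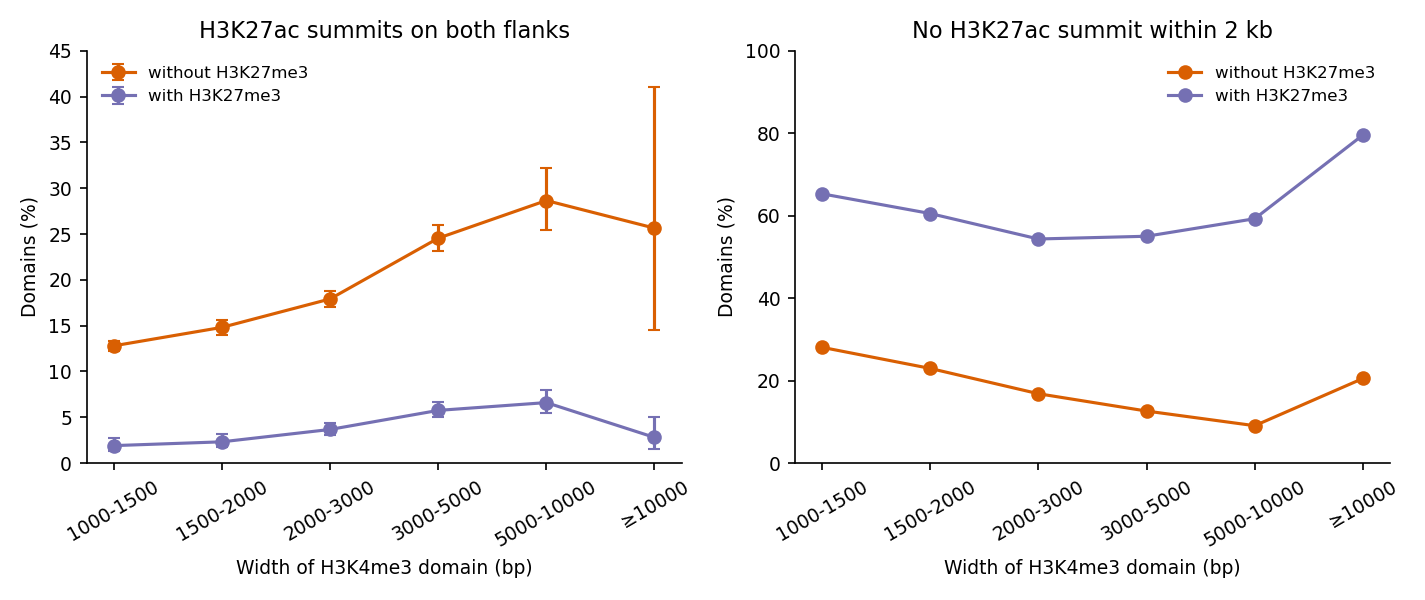
Share of H3K4me3 domains with firm H3K27ac summits on both flanks (left) and with none within 2 kb (right), in percent, by domain width in bp, for domains with and without firm H3K27me3. Bars on the left are 95% Wilson intervals; without H3K27me3 the share with both flanks is 12.8% to 28.7%, and with H3K27me3 1.90% to 6.60%.

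Chromosome 19 was again at the end of the range. The share with both flanks was 12.9% ± 1.73 over 20 chromosomes and lowest there, at 7.04%, while the share with no H3K27ac was 31.7% ± 2.75 and highest there, at 40.1%. In iPSC, whose H3K27ac list is shorter (213657 peaks), 6.54% of 44499 domains had both flanks (shifted 1.35%), 32.0% had 1 flank, 13.7% the centre alone and 47.7% none. Among domains with H3K27ac the order was thus the same in both cell types: 1 flank, then the centre alone, then both flanks. List length, and with it depth, cannot be told apart from the cell type here.

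Peaks of each mark alone were weaker and narrower than shared ones. The 163122 H3K4me3 peaks alone had a median width of 239 bp, a median fold of 3.29 and 71.1% firm peaks, against 328 bp, 3.85 and 82.9% for the shared. The 224367 H3K27ac peaks alone had 195 bp, 2.81 and 60.0%, against 263 bp, 3.19 and 76.1%. The nearest peak of the other mark lay 2390 bp away at the median for H3K4me3 alone and 3682 bp for H3K27ac alone. It was over 5 kb away for 31.7% and 41.5% of them. These gaps depend on the density of the other list: over all peaks, the median summit distance in shifted lists was 3112 bp from H3K4me3 to H3K27ac and 4449 bp from H3K27ac to H3K4me3, which differ in the same direction.

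The repressive marks separated the 2 kinds of solitary peak. Of the H3K4me3 peaks alone, 17.0% (16.8 to 17.2) lay on H3K27me3, against 6.56% (6.43 to 6.69) of the shared ones and shifted levels of 2.95% and 3.17%. Of the H3K27ac peaks alone, 0.506% (0.477 to 0.536) lay on H3K27me3, below the shifted level of 2.56%, against 5.10% (4.99 to 5.21) of those that also had H3K4me3 (2.85% shifted). H3K27ac on H3K27me3 sequence was therefore largely H3K27ac at H3K4me3 peaks: 7731 of such peaks were shared and 1135 alone. Each difference had the same direction on 20 of 20 chromosomes, with 17.1% ± 3.00 against 6.73% ± 2.25 for H3K4me3 and 0.540% ± 0.230 against 5.23% ± 1.74 for H3K27ac.

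The contrast was present in strong and weak peaks. In the strongest of the 5 groups of H3K4me3 peaks, 49.0% (48.3 to 49.7) of those alone and 18.9% (18.5 to 19.3) of those shared lay on H3K27me3. In the weakest group the shares were 8.94% and 1.103%. The H3K27me3 share of H3K4me3 peaks alone also grew with the distance to H3K27ac, from 7.83% where the gap was up to 1 kb to 14.3% at 1 to 5 kb and 29.1% beyond 5 kb. For H3K27ac peaks alone the same steps gave 0.985%, 0.557% and 0.228%.

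H3K9me3 gave another picture. It lay on 25.3% (25.1 to 25.5) of the H3K4me3 peaks alone, above the shifted level of 12.1%, and on 11.3% (11.1 to 11.4) of the shared ones, below 13.2%. Unlike H3K27me3, its share among H3K4me3 peaks alone fell with strength, from 30.8% in the weakest group to 14.1% in the strongest. It lay on 7.85% of the H3K27ac peaks alone and on 10.1% of the shared ones, both below their shifted levels of 10.7% and 11.7%. Neither repressive mark was found on 61.2% of the H3K4me3 peaks alone, 83.2% of the shared H3K4me3 peaks, 91.7% of the H3K27ac peaks alone and 85.5% of the shared H3K27ac peaks.

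**Figure D5:**
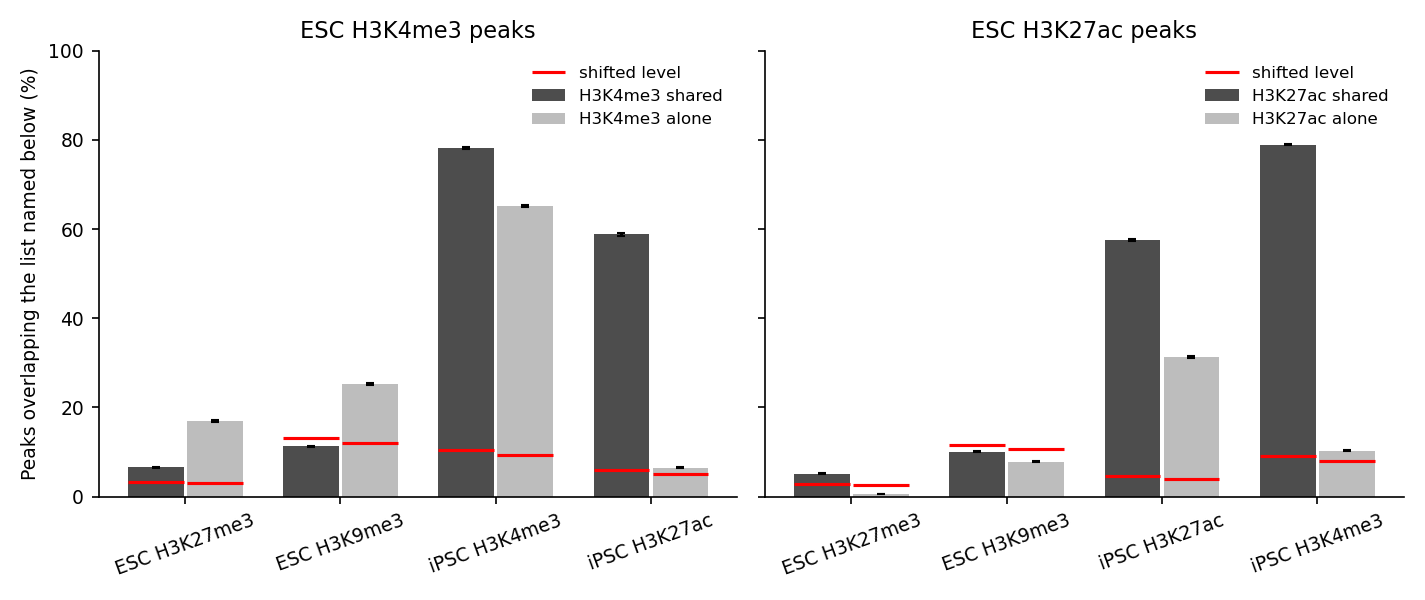
Share of ESC H3K4me3 peaks (left) and ESC H3K27ac peaks (right) that overlap another list (y axis, percent), for peaks shared with the other mark and peaks alone. Error bars are 95% Wilson intervals and red lines the level in shifted lists; H3K27me3 lies on 17.0% of the H3K4me3 peaks alone and on 0.506% of the H3K27ac peaks alone.

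Solitary and shared peaks differed in how often the iPSC lists held the same mark, most of all for H3K27ac. An iPSC H3K4me3 peak lay on 78.1% of the shared and 65.1% of the solitary ESC H3K4me3 peaks, with shifted levels of 10.5% and 9.42%. An iPSC H3K27ac peak lay on 57.5% of the shared and 31.3% of the solitary ESC H3K27ac peaks, with shifted levels of 4.71% and 3.95%. Among the strongest H3K4me3 peaks the shared and the solitary were nearly equal, at 97.8% and 96.6%. The pairing of the marks recurred in iPSC. Of the H3K4me3 peaks with an iPSC H3K4me3 counterpart, 65.9% of those shared in ESC and 8.56% of those alone in ESC overlapped iPSC H3K27ac. Of the H3K27ac peaks with an iPSC H3K27ac counterpart, 88.0% and 18.6% overlapped iPSC H3K4me3. No shifted level was computed for peaks with a counterpart. With or without one, 58.8% of the shared ESC H3K4me3 peaks (shifted 5.92%) and 6.47% of the solitary ones (4.96%) lay on iPSC H3K27ac. For ESC H3K27ac peaks on iPSC H3K4me3 the shares were 78.97% (9.08%) and 10.2% (7.997%). These solitary shares were thus only slightly above their shifted levels.

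Dense H3K27ac was rarely without H3K4me3. Firm H3K27ac peaks joined within 10 kb formed 74434 clusters, of which 34.8% held no H3K4me3 peak, against 67.1% when H3K4me3 was shifted. Of the 6404 clusters with at least 10 H3K27ac peaks, 64 held none, against a mean of 940 in shifted lists, and of the 500 with the most H3K27ac base pairs 0 held none, against 9.85. Among clusters of 1 firm peak, 58.7% were without H3K4me3, close to the 59.7% of all H3K27ac peaks, firm or not. No shifted level was computed for clusters of 1 firm peak.

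Single regions gave the extremes of each arrangement, with positions as in the deposited lists, whose genome build was not given in the sources used here, so that no gene is named. The widest H3K4me3 domain without an H3K27ac peak spanned 39.5 kb of chromosome 12 (61852970 to 61892480), and H3K27me3 covered 98.3% of it. Next came a 35.4 kb domain on chromosome 4 (53254364 to 53289800) with no H3K27me3 and H3K9me3 over its whole length (100%), and a 33.5 kb domain on chromosome 5 (167698514 to 167732015) with 97.1% H3K27me3. The 3 widest domains that did hold an H3K27ac peak, of 41.1 kb on chromosome 11, 35.8 kb on chromosome 14 and 35.4 kb on chromosome 4, held 1 such peak each, over 0.484%, 0.405% and 1.26% of their length, and H3K27me3 covered 97.4% or more of each. Of these 6 domains, 5 were thus almost wholly under H3K27me3.

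The domains with the most H3K27ac base pairs had H3K27me3 over 3.36% to 13.4% of their length. They were shorter than the domains above, which were picked for their width, but wide among all domains. Each was at least 10 kb wide, as were 396 of the 43159 domains. One of 13.3 kb on chromosome 11 (50414489 to 50427798) held 14 H3K27ac peaks over 8.999 kb, 67.6% of its length, with 3.36% H3K27me3. A domain of 10.02 kb on chromosome 10 (16989871 to 16999892) held 7 peaks over 88.3% of its length, with 9.499% H3K27me3. A 21.4 kb domain on chromosome 1 (155166008 to 155187425) held 16 peaks over 37.3%, with 13.4% H3K27me3.

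The largest H3K27ac cluster free of H3K4me3 spanned 50.1 kb of chromosome 5 (3453856 to 3503909) and held 34 H3K27ac peaks over 10.8 kb. Those on chromosome 18 (71987736 to 72023450) and chromosome 1 (2277749 to 2300064) held 24 and 16 peaks over 7.56 and 7.52 kb. None of the 3 had H3K27me3, and iPSC H3K27ac covered 4.11%, 9.13% and 8.38% of their spans, against 21.5%, 21.2% and 33.7% in ESC. The clusters were picked by their ESC H3K27ac, and the iPSC H3K27ac list covers less sequence (54.4 Mb against 102 Mb). Lower iPSC values thus follow in part from the choice and cannot be read as a difference of cell type.

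Among single peaks, the strongest shared H3K4me3 peak lay on chromosome 9 (86275959 to 86278147), with a fold of 18.9 and an H3K27ac summit 4 bp away with a fold of 6.59. The other two, on chromosomes 17 and 2, had their H3K27ac summits 1 and 10 bp away. The strongest H3K4me3 peak alone, also on chromosome 9 (23326433 to 23329643), had a fold of 19.8, H3K27me3 over all of its length (100%) and its nearest H3K27ac summit 13818 bp away. The other two, on chromosomes 12 and 3, were covered by H3K27me3 over 90.9% and 63.3%. None of the 3 shared peaks had any H3K27me3. These are single peaks; over the whole strongest group, H3K27me3 lay on 18.9% of the shared and 49.0% of the solitary peaks.

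The strongest shared H3K27ac peaks lay on chromosomes 1 (650373 to 651661, fold 19.4), 1 (119651600 to 119652116, fold 14.7) and 3 (35038932 to 35040360, fold 16.7), with H3K4me3 summits at 10, 46 and 6 bp. H3K27me3 covered 26.8%, 72.0% and 31.6% of them, whereas 5.10% of all shared H3K27ac peaks touched it. The strongest H3K27ac peak alone lay on chromosome 1 (10792324 to 10792687), with a fold of 13.0 and the nearest H3K4me3 summit 833 bp from its own. It and the next on chromosome 13 (90247593 to 90248947, fold 5.85, H3K4me3 summit at 729 bp) lay partly on H3K27me3, at 40.9% and 67.7% of their length. The third, on chromosome 12 (127840165 to 127841517, fold 5.11), had no H3K27me3 and had H3K9me3 over 55.1% of its length. Of all H3K27ac peaks alone, 0.506% touched H3K27me3.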

How the data were processed

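The members and the measures were chosen with earlier results of these data known. The deposited lists are MACS2 peaks, per the layout of their columns and the submitters' processing notes, which also name SAMtools 1.10, Picard and deepTools. The aligner, genome build, calling thresholds and pooling of libraries were not given in the sources used here. Fold enrichment (a ratio) and −log10 q are the authors' deposited values per peak and served here to rank, filter and describe the peaks of 1 list. The summit is the deposited offset from the peak start. H3K4me3 and H3K27ac lists have the narrow layout, H3K27me3 and H3K9me3 the broad one.

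An overlap needed 1 bp. A −log10 q of 5 or more (2 in the broad lists) made a peak firm. Lists were shifted by 100 evenly spaced offsets around each chromosome (20 of them for widths, strength, distances, clusters, other marks and iPSC domains, and 10 for the coverage profile), and by 40 offsets of 10 to 200 kb. Chromosome ends were the furthest peak ends. Peaks without a firm limit were used for the overlap with H3K27me3 and H3K9me3, and firm ones on domains. The named regions are the 3 highest of each kind, by width, covered H3K27ac or −log10 q. Since the build of the lists is unknown, planned gene lists were not run and no gene or sequence is given. The functions were tested on simulated intervals. Python 3, NumPy, pandas and SciPy were used.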

Additional observations from a re-analysis of the deposited data

How the results depend on the processing

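No paired analysis was possible because each mark had 1 list and no list could be tied to replicate numbers, and for the same reason no library could be left out. The values moved with the limits, and the shifted level moved with them. For the share of H3K4me3 peaks on H3K27ac (46.6%), a −log10 q of at least 5 gave 40.9% (shifted 7.23%), at least 10 gave 29.1% (3.38%), an overlap of 50% of the shorter peak 45.8%, joining within 1 kb 56.9%, and lists of equal length 41.3%. For H3K27ac on H3K4me3 (40.3%) the same settings gave 40.6% (7.06%), 45.3% (5.12%), 39.6%, 42.0% and 43.5%. The median distance from an H3K4me3 summit to H3K27ac (522 bp) was 927 bp at 5 (shifted 4791 bp) and 5014.5 bp at 10 (14983 bp). One summit per merged region gave 522 bp, since no peaks touch. The share of domains with H3K27ac on both flanks (12.9%) was 5.55% with a window of 1 kb (shifted 1.41%), 27.8% with 5 kb (14.1%), 3.43% at a −log10 q of 10 (0.763%) and 14.0% in domains of at least 2 kb (4.24%). H3K27me3 on H3K4me3 alone (17.0%) was 15.0% with firm peaks in all lists and 29.1% with no H3K27ac within 5 kb. H3K27me3 on H3K27ac alone (0.506%) was 0.193% and 0.228%. Each overlap, distance and flank value stayed on the same side of its shifted level where one was computed. Depth is unknown and limits every count of peaks without a partner.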
